A study of Rattus norvegicus with 6 samples.

Results

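Aminoacyl-tRNA synthetases are the enzymes that load amino acids onto their transfer RNAs, and 37 genes described here, of 20675 in the deposited rat table, encode such an enzyme or a scaffold protein of the complex that holds some of them. The members were chosen by gene symbol, with earlier results of these data known. They fall into 19 cytosolic enzyme genes, 16 mitochondrial enzyme genes (symbols that end in 2) and the scaffold genes Aimp1 and Aimp2. The file uses older symbols, so Nars stands for the gene now called Nars1, and likewise for the other cytosolic enzymes. The cells were primary cultures from discs of the rat jaw joint (temporomandibular joint), fibrous pads that cushion it. They received either GSK101, which opens the calcium-permeable channel TRPV4, or the solvent DMSO, each for 24 h. Each group had 3 libraries, and RNA levels were measured by sequencing of polyadenylated RNA. The sources used here do not give the strain, age or number of the animals, the dose of GSK101, or whether replicates came from separate cultures, so the p-values reflect only how these libraries varied, and that variation may be technical.

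Levels are RPKM values, reads scaled to the length of the gene and to the reads counted in the library, so that levels of different genes can be compared. The 6 libraries held 43061102 to 45705238 counted reads. The members together took 0.493% to 0.495% of them in the controls and 0.499% to 0.510% with GSK101. Along the first principal component (55.5% of the variance) the groups lay apart.

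Markers of the labelled cell type were present, and several differed between the groups at an adjusted p of 0.05 in limma. Of 6 fibroblast markers Dcn, Lum and Pdgfra rose, from 16.97 to 23.1, from 31.96 to 47.2 and from 11.7 to 16.0 RPKM in group means, Thy1 fell from 1500.2 to 1282, and Col1a1 (1903 and 1637) and Col3a1 (3521 and 3284) did not pass. Of 5 disc and tendon markers Scx fell from 34.7 to 19.6 and Cilp from 54.4 to 27.2, Prg4 rose from 10.99 to 31.2, and Mkx (2.60 and 2.51) and Tnmd (2.27 and 1.81) did not pass. Neither list moved in a single direction. Of 6 pericyte and smooth muscle markers Acta2, Myh11 and Mcam fell. Cspg4 (10.04 and 11.56) and Des (0.647 and 0.869) were higher in the mean with GSK101 but did not pass. Rgs5 (0.129 and 0.212) was too low to be tested. The summed level was 5302 to 5506 RPKM in the controls and 2902 to 3168 with GSK101, mostly from Acta2. Of 5 skeletal muscle markers Acta1, Myh4 and Myh3 fell, Ckm and Myog were at or near 0, and the sum was 14.6 to 15.98 and 8.64 to 9.39.

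Lists for other cell types held both scarce and well-expressed genes. Among 5 chondrocyte markers Col2a1 was at most 0.0389 RPKM, but Acan was at 29.8 to 37.6 and Sox9 at 2.22 to 2.92, and the sum was 33.0 to 40.96 in the controls and 33.7 to 36.1 with GSK101. Among 5 macrophage markers Ptprc was at most 0.576, but Cd68 was at 3.99 to 7.18 and Cd14 rose from 1.88 to 3.18, and the sum was 7.35 to 10.6 and 8.07 to 11.4. Both of these sums overlapped between the groups. Among 3 adipocyte markers Lpl fell from 7.29 to 3.84, and the sum, mostly from Lpl, was 7.72 to 8.32 and 4.74 to 5.05. Adipoq (0.620 and 0.815) was higher in the mean with GSK101 but did not pass, and Plin1 (0.150 and 0.203) was too low to be tested. The sum of 4 endothelial markers was 0.639 to 0.822 and 1.08 to 1.28, mostly from Kdr, which rose from 0.551 to 1.01, while Cdh5 (0.0332 and 0.00769), Tek (0.128 and 0.118) and Emcn were too low to be tested. The part of these differences in the results was not tested. In such bulk samples, fewer cells of a type and less RNA per cell cannot be told apart.

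As background, each synthetase recognises its own amino acid and the matching transfer RNAs, and together these enzymes set the fidelity of translation. Cytosol and mitochondria mostly use enzymes of separate nuclear genes, although Gars and Kars make both forms from 1 gene each, and mitochondria form glutaminyl-tRNA from a product of Ears2 with the help of an amidotransferase. In the cytosol several of the enzymes sit with the scaffold proteins AIMP1 and AIMP2 in the multisynthetase complex. Many cytosolic synthetase genes are textbook targets of ATF4, the transcription factor made when amino acid shortage or stress in the endoplasmic reticulum leads to phosphorylation of eIF2 alpha.

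Cytosolic enzymes were abundant and mitochondrial ones scarce in both groups. Control means of the cytosolic genes ran from 11.04 RPKM for Farsb to 366 for Sars, with a median of 59.5. The 16 mitochondrial genes lay between 0.413 for Mars2 and 17.1 for Iars2. Summed over the genes of each class, the cytosolic level was 1708 ± 6.88 without and 1738 ± 18.3 with GSK101 (SD, n = 3), and the mitochondrial level was 64.5 ± 1.45 and 61.7 ± 1.28. The cytosolic sum was 25.8 to 26.9 times the mitochondrial sum in the control libraries and 27.6 to 28.8 times in the GSK101 libraries. Much of the mitochondrial difference came from Iars2 (17.1 and 15.7 RPKM in group means) and Fars2 (5.56 and 4.68). This ratio of sums was not tested, and among single tested genes the groups did not overlap for 47.3%.

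At the top of the order stood Sars, the serine enzyme, at 366 ± 1.46, and Nars, the asparagine enzyme, at 312 ± 6.41 RPKM in the controls (SD, n = 3). They were followed by Gars (glycine) at 155 ± 4.48 and Hars (histidine) at 128 ± 3.34. These 4 did not overlap with one another across the control libraries. In the next steps, Eprs, the fused enzyme for glutamate and proline, was at 107 ± 2.21, Tars (threonine) at 93.8 ± 1.67 and Aars (alanine) at 83.0 ± 1.89. Rars (arginine, 68.3 ± 2.39) and Cars (cysteine, 65.6 ± 3.57) overlapped across the control libraries, as did Wars (tryptophan, 59.5 ± 1.13) and Lars (leucine, 55.3 ± 5.99). Kars (lysine, 51.4 ± 2.55) and Qars (glutamine, 50.2 ± 3.84) did not differ beyond their spread. Among the scaffolds Aimp1 was at 113 ± 5.40 and Aimp2 at 17.3 ± 1.92. In the mitochondrial class Tars2, at 10.8 ± 0.512, came after Iars2, and the means of the other 14 genes were 6.05 or less.

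**Figure D1:**
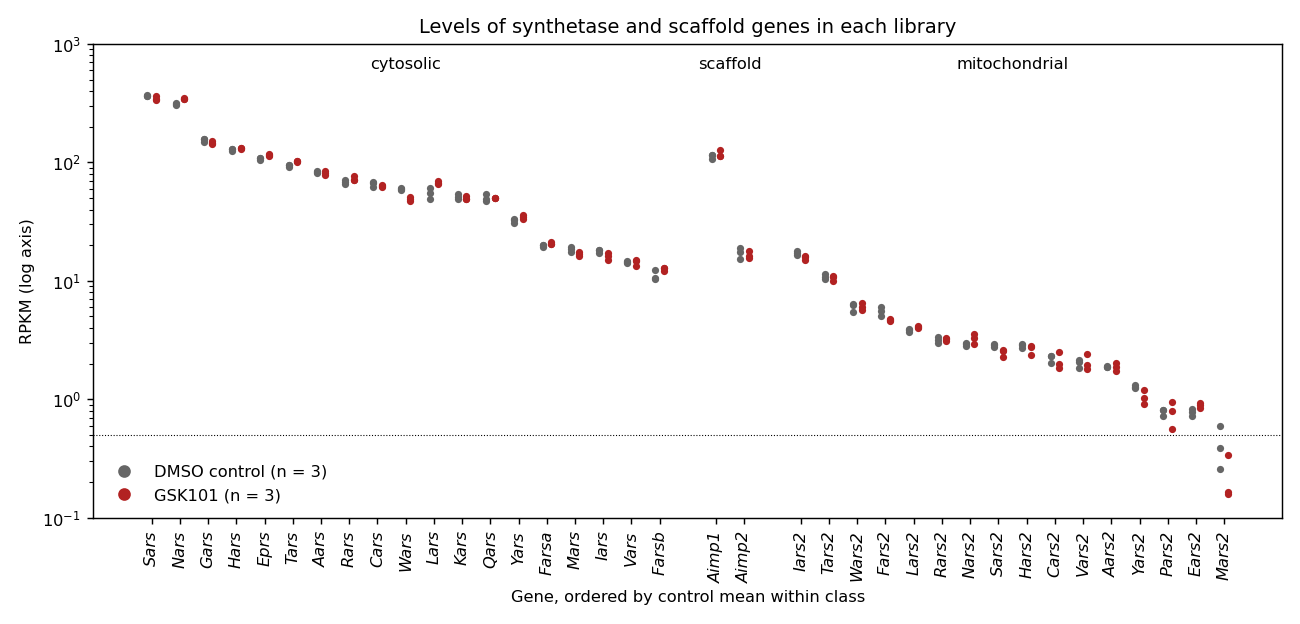
RPKM on a log axis of each of the 37 genes in every library, ordered by control mean within the cytosolic, scaffold and mitochondrial classes; grey points are the 3 DMSO libraries, red points the 3 GSK101 libraries, and the dotted line is the filter at 0.5 RPKM. The cytosolic genes span 11.04 to 366 RPKM in control means, the mitochondrial genes 0.413 to 17.1, and the 2 colours of a gene lie close together.

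For 16 of the 17 pairings of a mitochondrial gene with a cytosolic gene for the same amino acid, the control mean of the cytosolic gene was at least 1.99 times that of the mitochondrial gene. The pair for isoleucine was the exception, with Iars at 17.9 ± 0.618 and Iars2 at 17.1 ± 0.725 RPKM, a ratio of 1.045. The widest gap was that of Eprs over Ears2, the mitochondrial glutamate enzyme, at 137.5 times. Sars stood 128 times above Sars2 and Nars 107 times above Nars2.

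Changes of the synthetase genes with GSK101 were small. Of the 19 cytosolic genes, all of which were tested, 3 rose (Lars, Nars and Tars), 1 fell (Wars) and 15 did not pass the threshold of an adjusted p of 0.05 in limma. Of all 12801 tested genes 20.1% were called higher and 11.9% lower, 31.9% in either direction. The cytosolic share of 3 in 19 called higher did not exceed the background in that direction. At an unadjusted p of 0.05 in limma 6 cytosolic genes were higher and 3 lower, against 3349 and 2132 of all 12801 tested genes. Of the 15 tested mitochondrial genes 1 fell (Fars2) and 0 rose in limma, with 0 higher also at an unadjusted p of 0.05 and in limma-voom, which called 35.8% of all tested genes in either direction. Neither scaffold gene passed.

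The median log2 fold change was 0.001 for the cytosolic and -0.021 for the mitochondrial genes, against 0.032 for all tested genes. Values on the log2 scale refer to log2(RPKM + 0.5), which understates the change of low genes. The median size of the change, whatever its sign, was 0.095 for cytosolic, 0.08 for mitochondrial and 0.16 for all tested genes. The largest change of any tested member was 0.29, and 25.2% of all tested genes exceeded it. The 95% intervals of all 19 cytosolic genes lay between -0.38 (Wars) and 0.47 (Lars), so a change of more than 1.38-fold in either direction lay outside the interval of each of them. For the tested mitochondrial genes the bounds were -0.45 (Yars2) and 0.35 (Ears2). Groups did not overlap for 11 of the 19 cytosolic and 6 of the 15 tested mitochondrial genes, where the share among all tested genes was 47.3%.

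**Figure D2:**
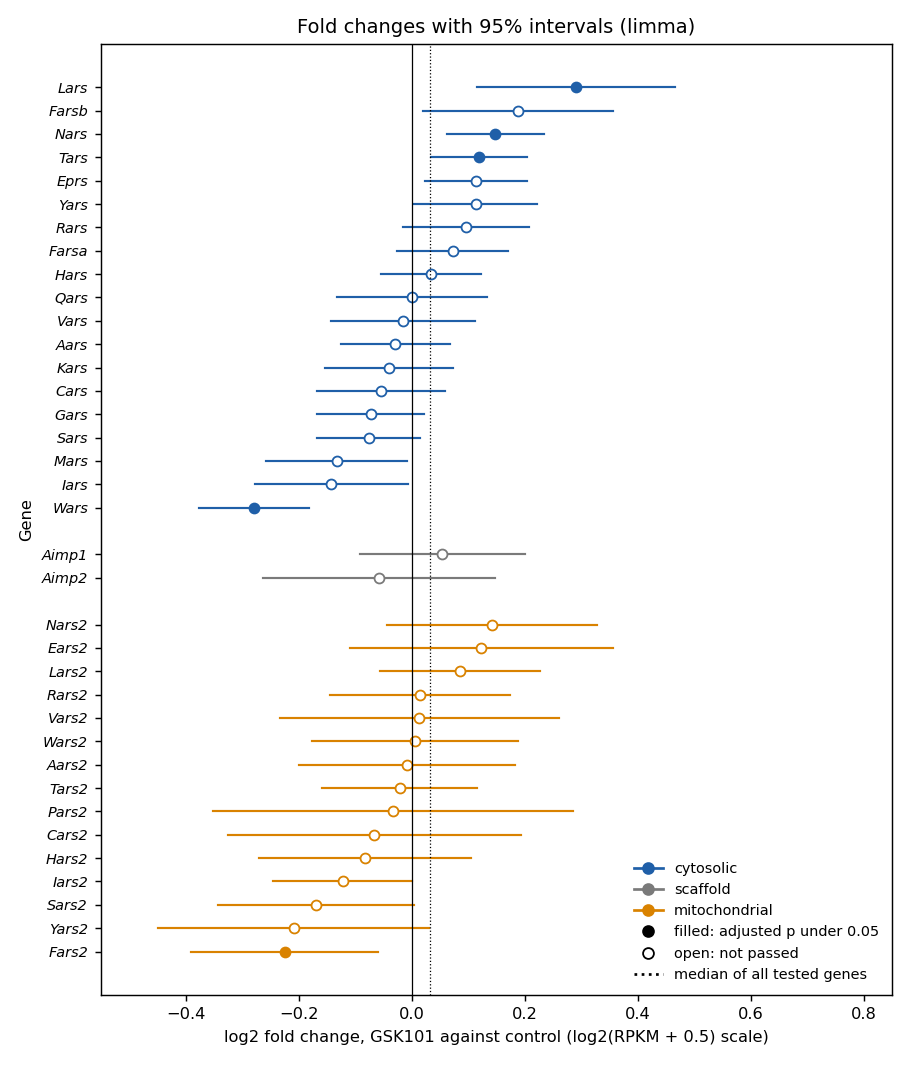
Log2 fold change of each tested member with its 95% interval from limma, on the log2(RPKM + 0.5) scale; blue is cytosolic, grey scaffold and orange mitochondrial, filled points passed an adjusted p of 0.05, and the dotted line is the median of all tested genes. Lars (0.29), Nars (0.15) and Tars (0.12) are filled on the right, Wars (-0.28) and Fars2 (-0.22) on the left. Most of the other intervals include 0, but those of Eprs, Farsb, Yars, Iars and Mars do not. The intervals are not adjusted for the number of genes tested.

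The number of cytosolic genes called higher depended on single libraries and on the scaling. It was 0 without control replicate 2, GSK101 replicate 2 or GSK101 replicate 3, and 1 without GSK101 replicate 1. Wars passed under each of the 17 alternative settings, and each of the 4 called cytosolic genes kept its direction under all of them.

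Lars, the leucine enzyme, which also takes part in sensing leucine for mTORC1, had the largest increase. It was at 49.1, 55.6 and 61.1 RPKM in the controls and at 65.4, 67.2 and 69.8 with GSK101. The groups did not overlap, and control replicate 1 was the lowest. The means were 55.3 ± 5.99 and 67.5 ± 2.22 (SD, n = 3), a ratio of 1.22. The change was 0.29 on the log2 scale, with a standard error (SE) of 0.08 and an adjusted p of 0.0220 in limma. In 5 of the 17 alternatives Lars did not pass, among them those without control replicate 2, GSK101 replicate 2 or GSK101 replicate 3 (adjusted p = 0.0563 to 0.0679; 0.00242 to 0.0679 over all alternatives). On Rnor_6.0 the gene spans 36524007 to 36579403 on chromosome 18 (minus strand).

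Nars, the asparagine enzyme, was the most abundant member that changed. It was at 314, 305 and 318 RPKM in the controls and at 343, 344 and 350.5 with GSK101. The lowest GSK101 library stood above the highest control. The rise was 1.11-fold (0.15 ± 0.04 SE on the log2 scale, with an adjusted p of 0.0182 in limma), on 34991 to 40610 reads per library. Its adjusted p ran from 0.00642 to 0.0665 over the alternatives and lay above 0.05 in 6 of them, which include median-ratio scaling (0.0653) and leaving out control replicate 2 (0.0665) or any of the 3 GSK101 libraries (0.0507 to 0.0634).

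Tars, the threonine enzyme, had the smallest rise that passed. It was at 94.3, 91.9 and 95.2 RPKM in the controls and at 103, 100.3 and 103 with GSK101, again without overlap. On the log2 scale this was 0.12 ± 0.04 (SE), with an adjusted p of 0.0406 in limma. The call was lost in 11 of the 17 alternatives, including the removal of any single library (adjusted p = 0.0523 to 0.138; 0.0157 to 0.142 over all alternatives). Nars lies on chromosome 18 from 59986360 to 60002569 and Tars on chromosome 2 from 61394770 to 61414102, both on the minus strand.

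Wars, which encodes the tryptophan enzyme and is widely known as a gene induced by interferon gamma, was the cytosolic gene called lower with the values as deposited. It was at 60.5, 59.6 and 58.3 RPKM in the controls and at 48.8, 47.4 and 50.6 with GSK101. The highest GSK101 library was well below the lowest control. The means were 59.5 ± 1.13 and 48.9 ± 1.64 (SD, n = 3), a change of -0.28 ± 0.04 (SE) in log2 with an adjusted p of 0.00233 in limma. Wars spans 132771021 to 132802210 on chromosome 6 (minus strand). Of 11 tested interferon response genes 1 rose and 1 fell (0 to 2 in each direction over the alternatives), and their median change was 0.007. These calls were 18.2% of the list, below the 31.9% of all tested genes. Gbp2, a guanylate-binding protein gene, rose from 3.73 ± 0.474 to 4.91 ± 0.255 RPKM (adjusted p = 0.0192 in limma), and Ifit2 fell by 0.25 on the log2 scale (adjusted p = 0.0468). The call of Gbp2 was lost without control replicate 1 or 3 or GSK101 replicate 1 or 2, and that of Ifit2 without any library other than control replicate 1.

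Fars2, the mitochondrial phenylalanine enzyme, was the mitochondrial member that passed. Its levels were 5.998, 5.60 and 5.08 RPKM in the controls and 4.79, 4.55 and 4.70 with GSK101. The groups did not overlap, and the GSK101 libraries lay closer together. The change was -0.22 ± 0.07 (SE) in log2, with an adjusted p of 0.0461 in limma, on 392 to 531 reads per library. The call was lost in 9 of the 17 alternatives and when any library other than control replicate 3 was left out (adjusted p = 0.0908 to 0.130; 0.0153 to 0.130 over all alternatives). The gene spans 29006988 to 29438668 on chromosome 17 (minus strand).

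**Figure D3:**
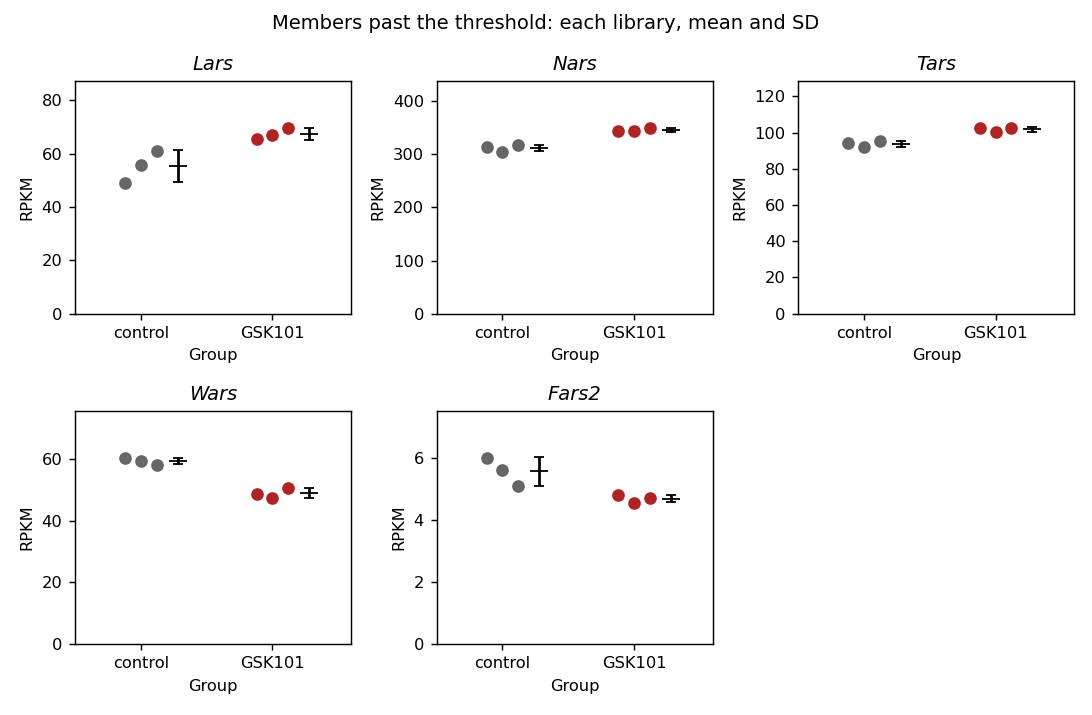
RPKM of the 5 members past the threshold in each library, with the axis from 0; grey points are DMSO and red points GSK101, and the black marks show the mean ± SD of 3 libraries. The red points of Lars, Nars and Tars lie above all grey points, and those of Wars and Fars2 lie below them.

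Further genes, picked after their values were seen, had groups that did not overlap without passing the test. Among all tested genes the groups did not overlap for 47.3%. Eprs was at 104, 108 and 108 RPKM in the controls and at 113, 119 and 115 with GSK101, a log2 fold change of 0.11 (adjusted p = 0.0575 in limma). Iars, the isoleucine enzyme, had 18.2, 18.3 and 17.2 against 15.1, 17.2 and 16.3, a log2 fold change of -0.14 (adjusted p = 0.103). Its highest GSK101 library and its lowest control were almost level, at 17.18 and 17.20. Mars, the methionine enzyme, had 19.5, 18.7 and 17.6 against 17.5, 16.9 and 16.3, a log2 fold change of -0.13 (adjusted p = 0.0964). Exons of Mars share 134 bases with Ddit3 on the opposite strand, a gene at 260 ± 17.2 RPKM in the controls that fell to 207 ± 0.528. Whether counting used strand is not stated in these sources, so part of the Mars reads could belong to Ddit3.

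The serine and asparagine enzymes, apart in the controls, stood at nearly the same level with GSK101. Sars was at 364, 365 and 367 RPKM in the controls and at 339.8, 340.4 and 361 with GSK101, a log2 fold change of -0.08 that did not pass (adjusted p = 0.183 in limma). The level of Sars divided by that of Nars in the same library was 1.16, 1.198 and 1.16 in the controls and 0.989, 0.990 and 1.03 with GSK101. This ratio was chosen after its values were seen, so it has no test. The 2 subunits of the cytosolic phenylalanine enzyme stayed unequal in both groups: Farsa (catalytic) over Farsb was 1.94, 1.90 and 1.57 in the controls and 1.599, 1.74 and 1.61 with GSK101. Farsa did not pass, with a log2 fold change of 0.07. Farsb, at 0.19, had an adjusted p of 0.0850 in limma. Over the alternatives its adjusted p ran from 0.0139 (without control replicate 3) to 0.213, and it passed in 3 of the 17.

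Split by where the enzymes sit, 1 of the 7 synthetases of the multisynthetase complex rose (Lars), as did 2 of the 12 outside it (Nars and Tars), of which 1 fell (Wars). In both sets the share called in either direction was below the 31.9% of all tested genes. The median log2 fold changes were 0.001 and 0.009. Over the alternatives 0 to 3 rose in the complex and 0 to 3 outside it, with 0 in both without control replicate 2, GSK101 replicate 2 or GSK101 replicate 3. Aimp1 was at 107, 116 and 116 RPKM in the controls and at 112, 112 and 128 with GSK101, and Aimp2 at 17.6, 19.1 and 15.3 against 15.6, 16.1 and 18.0, with overlap in both. Eef1e1, which encodes a further scaffold of the complex often called AIMP3, rose from 11.3 ± 0.321 to 12.7 ± 0.491 (SD, n = 3; adjusted p = 0.0448 in limma). It was in a list of 8 partners and editing factors, of which 2 rose and 0 fell (0 to 2 in each direction over the alternatives, 1 lower at an unadjusted p of 0.05). The other was Sepsecs, the enzyme that completes selenocysteinyl-tRNA, at 0.25 on the log2 scale (adjusted p = 0.0260 in limma). Both calls were lost without control replicate 1 or 2 or without any of the GSK101 libraries. Without control replicate 3 at most 1 gene of the list was called higher. The share of the list of 8 called in either direction was below the 31.9% of all tested genes, of which 20.1% rose.

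By the fold of the catalytic domain, 1 of 18 tested class I genes rose (Lars) and 1 fell (Wars), while 2 of 16 class II genes rose (Nars and Tars) and 1 fell (Fars2). The fused enzyme gene Eprs was counted in class I only. The calls in either direction were 11.1% in class I and 18.8% in class II, against 31.9% of all tested genes. Over the alternatives 0 to 3 rose and 1 to 4 fell in class I, and 0 to 3 rose and 0 to 2 fell in class II. Of the 13 cytosolic genes usually listed as ATF4 targets 3 rose and 1 fell, and the median change in log2 was -0.029. These calls made up 30.8% of the list, close to the 31.9% of all tested genes. Of the 6 other cytosolic genes 0 rose and 0 fell in limma, by limma-voom 1 and 0 and at an unadjusted p of 0.05 also 1 and 0, with a median of 0.05. Over the alternatives 0 to 4 of the 13 rose, with 0 without control replicate 2, GSK101 replicate 2 or GSK101 replicate 3 and 1 without GSK101 replicate 1. The 3 members of the ATF4 list that rose were Lars, Nars and Tars, and the member that fell was Wars. Aars, Gars and Cars of the same list had log2 fold changes of -0.03, -0.07 and -0.05 and did not pass.

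Promoter sequences were searched for the letters of stress-responsive sites. RefSeq windows of 300 bases, from 250 before to 50 after the annotated start on the GRCr8 build, were at hand for 17 of the 19 cytosolic, all 16 mitochondrial and both scaffold genes. The letters TTGCATCA, or TGATGCAA on the other strand, match the core of the amino acid response element that ATF4 is known to bind. They occurred in 7 of the 17 cytosolic windows and in 0 of the 16 mitochondrial windows, where 0.795% of all 33469 windows held them. These letters were chosen with the windows in view. The stretches around the match are shown for 6 of the 7 to let the genes be compared, with the match in capitals:
Cars1, chr1:208225334-208225363, minus strand: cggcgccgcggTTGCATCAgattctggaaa
Iars1, chr17:15193658-15193687, minus strand: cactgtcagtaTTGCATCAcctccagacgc
Mars1, chr7:65023752-65023781, minus strand: gcccgttccggTTGCATCAgcgtgggctcc
Nars1, chr18:60275778-60275807, minus strand: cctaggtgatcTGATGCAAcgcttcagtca
Tars1, chr2:62114811-62114840, minus strand: ctggcgtcccgTTGCATCAgctggttagct
Yars1, chr5:146820190-146820212, plus strand: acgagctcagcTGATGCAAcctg

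Each stretch is written 5′ to 3′ on the strand of its gene. The match lay before the annotated start in Iars1, Mars1, Nars1 and Tars1, and after it in Cars1 and Yars1. Of the 7 genes 2 rose (Nars and Tars) and 5 did not pass, with log2 fold changes from -0.14 (Iars) to 0.15 (Nars) and a median of -0.029. Of the 10 cytosolic genes without the letters 1 rose and 1 fell, with a median of 0.018 and a range from -0.28 (Wars) to 0.29 (Lars). Among all tested genes 20.1% rose and 31.9% were called in either direction. Genes with these letters had log2 fold changes of both signs. With any base at the third position (TTNCATCA) the same 7 genes matched, and 3.98% of all windows did. The letters CACGTG, the E-box core bound by Myc family factors, were in 5 of the 17 cytosolic and 1 of the 16 mitochondrial windows, and in 6.42% of all windows. In the 9424 windows whose symbols match a tested gene, the shares were 0.509% for TTGCATCA, 1.92% for TTNCATCA and 9.33% for CACGTG. A match is a description of these letters and says nothing about binding.

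Nars was the only member whose window also held TGANTCA, the core of the AP-1 site to which Fos and Jun bind, and it held 2 copies, as TGAGTCA and TGACTCA. Among all windows 7.33% held the letters, and among those whose symbols match a tested gene 4.98% did. The search covered both strands, which read alike for this motif, and no match overlapped the TGATGCAA. The 250 bases before the Nars1 start (GRCr8, chr18:60275783-60276032, minus strand) are printed because Nars is the abundant member that rose, with all 3 matches in capitals:
Nars1: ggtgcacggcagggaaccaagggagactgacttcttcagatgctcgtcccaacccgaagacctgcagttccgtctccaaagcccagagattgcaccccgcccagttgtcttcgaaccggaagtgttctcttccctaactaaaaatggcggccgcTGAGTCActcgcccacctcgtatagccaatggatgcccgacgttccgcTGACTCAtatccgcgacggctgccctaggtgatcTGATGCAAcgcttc

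Among the mitochondrial enzymes, 5 genes besides Fars2 had groups that did not overlap without passing the test. Lack of overlap was not more frequent here (6 of 15 tested genes) than among all tested genes (47.3%). Iars2 had 17.0, 17.9 and 16.5 RPKM in the controls and 16.1, 14.99 and 16.04 with GSK101 (log2 fold change -0.12, adjusted p = 0.119 in limma). Sars2 had 2.91, 2.78 and 2.86 against 2.55, 2.61 and 2.29 (-0.17, adjusted p = 0.125). Yars2, the tyrosine enzyme, had 1.26, 1.24 and 1.32 against 0.905, 1.02 and 1.19 on 63 to 91 reads per library (-0.21, adjusted p = 0.164). Ears2 and Lars2 were higher in each GSK101 library, by 0.12 and 0.09 on the log2 scale. The median standard error was 0.08 for mitochondrial and 0.05 for cytosolic genes, so changes as small as those of Nars or Tars were harder to detect in the mitochondrial class.

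Mars2, the mitochondrial methionine enzyme, did not reach the filter of 0.5 RPKM in 3 libraries. It was at 0.596, 0.258 and 0.386 in the controls and at 0.166, 0.339 and 0.158 with GSK101, on 12 to 48 reads. The means were 0.413 ± 0.171 and 0.221 ± 0.102 (SD, n = 3), a ratio of 0.534. The groups overlapped, and the gene was too low to enter the test. Hars and Hars2 lie head to head on chromosome 18 with their starts 97 bases apart. Hars was at 128 ± 3.34 RPKM without and 131 ± 1.89 with GSK101, and Hars2 at 2.83 ± 0.101 and 2.65 ± 0.231 (SD, n = 3). Neither passed.

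Enzymes for the same amino acid in the 2 compartments can be set side by side. Wars fell by 0.28 on the log2 scale and Wars2 had a log2 fold change of 0.005. Lars rose by 0.29 and Lars2 stood at 0.09, and Tars rose by 0.12 while Tars2 stood at -0.02. For asparagine both values were similar, 0.15 for Nars and 0.14 for Nars2, although Nars2 did not pass. Fars2 fell by 0.22, whereas Farsa and Farsb had positive values. The differences between the compartments were not tested.

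Among the other genes of the amino acid response more fell than rose. Of 25 tested ATF4 and amino acid response genes outside the synthetases 14 fell and 1 rose, where 11.9% of all tested genes fell and 20.1% rose, and the median change was -0.24 in log2 (11 to 17 fell and 0 to 2 rose over the alternatives). Asns, asparagine synthetase, was at 33.5, 33.1 and 33.3 RPKM in the controls and at 25.8, 24.4 and 25.7 with GSK101, and fell by 0.39 (adjusted p = 0.000604 in limma). Atf5, a transcription factor gene of the same response, fell by 0.54 from 202 ± 8.15 to 139 ± 2.00 RPKM (SD, n = 3). Trib3, a pseudokinase gene, fell by 0.48 and Pck2, the mitochondrial phosphoenolpyruvate carboxykinase gene, by 0.37 on the log2 scale. All 4 passed in each of the 17 alternatives. Atf4 itself fell by 0.24 and Ddit3, which encodes CHOP, by 0.33, both named after their values were seen. The gene that rose, also named after its value was seen, was Xpot, which encodes the exporter of tRNA from the nucleus: 13.1, 12.4 and 14.3 RPKM in the controls and 15.8, 15.6 and 15.8 with GSK101 (log2 fold change 0.24, adjusted p = 0.0180). Xpot lost its call without control replicate 2, GSK101 replicate 1 or GSK101 replicate 3.

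Of 13 tested amino acid transporter genes 2 rose and 3 fell (2 to 3 and 1 to 4 over the alternatives), 38.5% in either direction, close to the 31.9% of all tested genes. Slc1a3, a glutamate and aspartate transporter gene, rose 1.87-fold from 1.34 ± 0.111 RPKM and Slc38a1, a glutamine transporter gene, 1.49-fold from 2.88 ± 0.423 (adjusted p = 0.00281 and 0.00689 in limma). Slc3a2, the heavy chain shared by several exchangers, fell by 0.26 and Slc1a4 by 0.21 on the log2 scale. Of 16 ER chaperone genes 8 fell and 2 rose, 62.5% in either direction, where 11.9% of all tested genes fell and 20.1% rose. Pdia6, Pdia3 and Herpud1 fell by 0.24, 0.17 and 0.30, and Canx, which encodes calnexin, rose by 0.18. The number of chaperone genes that fell was 3 after rescaling to TPM, 5 with quantile normalization or with the length trend removed, 2 without control replicate 2 and 3 without GSK101 replicate 1, of which 2 in 16 is near the share of all tested genes that fell, and the number that rose was 1 without any single library.

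Of 16 genes that act on eIF2, 3 rose, 1 fell and 12 did not pass, a share of calls below the 31.9% of all tested genes. Eif2ak2, the kinase PKR, went from 9.52 ± 1.36 to 13.1 ± 0.537 RPKM (adjusted p = 0.0107 in limma). Eif2s2 and Eif2s1, subunits of eIF2, rose by 0.25 and 0.15 on the log2 scale, and Ppp1r15a, which encodes the phosphatase subunit GADD34, fell by 0.16. Eif2ak2 passed in all 17 alternatives. The number that rose was 1 without GSK101 replicate 3, and Ppp1r15a passed without GSK101 replicate 2 but not without any other library.

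Downstream of charged tRNA, 10 of 24 tested cytosolic translation factor genes rose and 2 fell, where 20.1% of all tested genes rose and 11.9% fell, and the median change was 0.10 in log2. Etf1, the release factor, was at 100.6, 107 and 111 RPKM in the controls and at 139.6, 137 and 141 with GSK101 (log2 fold change 0.39, adjusted p = 0.000815 in limma). Eif3a and Eif3b, subunits of initiation factor eIF3, rose by 0.38 and 0.26, and Eef2k, the kinase that inhibits elongation factor eEF2, fell by 0.33. The number that rose was 5, near that share, with median-ratio scaling or without control replicate 2, and 6 without control replicate 3, GSK101 replicate 1 or GSK101 replicate 2. The number that fell was 1 without control replicate 2 or GSK101 replicate 1. Of 46 tested genes of tRNA maturation and modification 8 rose and 1 fell (19.6%, against 31.9% of all tested genes), with 4 higher without GSK101 replicate 1 and 5 without GSK101 replicate 2. Trmt6 and Trmt10a, tRNA methyltransferase genes, rose by 0.33 and 0.32. Pus7, a pseudouridine synthase gene, rose by 0.23 and Pop7, which encodes a subunit of RNase P, by 0.21.

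Most partners of the mitochondrial enzymes did not pass the test. Of 17 tested mitochondrial translation factors, amidotransferase subunits and related genes 2 rose, 1 fell and 14 did not pass, so that 17.6% were called, against 31.9% of all tested genes. Tfam, the packaging factor of mitochondrial DNA, rose by 0.24 and Lrpprc, which stabilises mitochondrial mRNA, by 0.21, and the elongation factor gene Tsfm fell by 0.32 on the log2 scale (adjusted p = 0.0114, 0.0223 and 0.0296 in limma). Tfam passed in all 17 alternatives; Lrpprc was lost without control replicate 1 or 2 or GSK101 replicate 1 or 3, and Tsfm without control replicate 1 or 2 or GSK101 replicate 2 or 3. Of 74 mitochondrial ribosomal protein genes 5 rose and 6 fell, 14.9% in all and again below the share of all tested genes, and their median change was -0.005. The number that rose was 2 to 10 and the number that fell 2 to 10 over the alternatives, with 2 higher and 2 lower without GSK101 replicate 1, 3 higher without control replicate 1 or GSK101 replicate 3, and 2 or 3 lower without control replicate 2 or 3 or GSK101 replicate 2. These 4 passed in all 17 alternatives: Mrps34 and Mrps18a rose by 0.31 and 0.21, and Mrpl55 and Mrpl17 fell by 0.23 and 0.19.

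**Figure D4:**
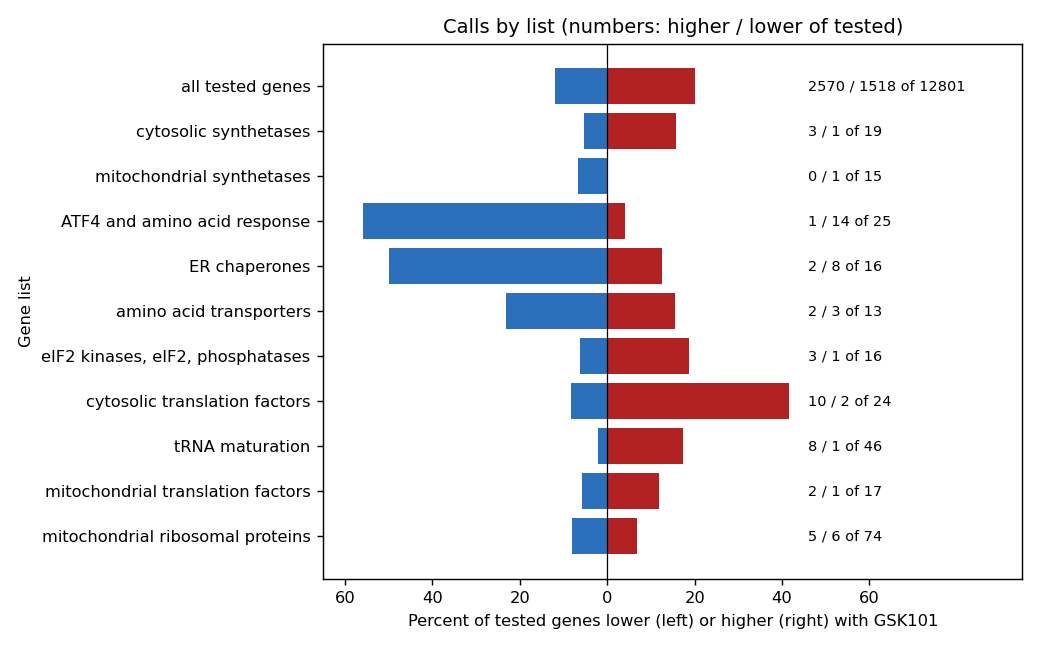
Percent of tested genes called lower (blue, to the left) or higher (red, to the right) with GSK101 at an adjusted p of 0.05 in limma, for all tested genes, the synthetase classes and the related lists; the numbers give higher / lower of tested. The synthetase classes have 3 / 1 of 19 and 0 / 1 of 15, while the amino acid response list reaches 14 lower of 25 and the cytosolic translation factors 10 higher of 24.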

How the data were processed

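RNA sequencing of 3 GSK101 and 3 DMSO samples was deposited by the authors as 1 table of RPKM values for 20675 genes. Per the submitters' processing notes, which give no role or order, the tools were STAR 2.5.3a, edgeR 3.12.1, Trimmomatic 0.36, featureCounts and Subread 1.5.1, and the build was Rnor_6.0. Per the labels' protocols, the library kit was stranded and tagged molecules with random identifiers. How these identifiers, the strand and reads with several map positions were handled is not stated in these sources. RPKM times length gave whole reads (within 0.01) for 100% of values, with 43061102 to 45705238 reads per library; 71.3% to 74.7% of genes with 1 to 10 reads had an even number, so mates may be counted separately.

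Genes with at least 0.5 RPKM in 3 libraries (12801) were converted to log2(RPKM + 0.5) and tested in R 4.3.3 by limma 3.58.1 with 1 term for the group, a variance trend and Benjamini-Hochberg adjustment over all tested genes; this was tested on simulated data. The 17 alternatives changed the pseudocount (0.1, 1), the filter, the scaling (TPM, median ratio, quantile), the gene length trend (loess, span 0.3), the variance trend, the test (limma-voom on the recovered reads), the replicate block and, in turn, each library. Members followed the symbol rule; 2 further genes that match it, 1 promoter stretch and 1 list of cell type markers are not reported here. From each related list up to 4 genes with the smallest adjusted p were named, with others marked as chosen after their values were seen. The members and lists were chosen with earlier results of these data known. Older symbols were matched through RefSeq synonyms; promoters are RefSeq GRCr8 and carry no coordinates of the deposited table.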

Additional observations from a re-analysis of the deposited data

How the results depend on the processing

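None of the called members changed direction under the 17 alternatives, but most calls of small changes did not hold under all of them. The number of cytosolic genes called higher, 3 as deposited, was 6 after rescaling to TPM and 1 with median-ratio scaling, with the gene length trend removed or without the variance trend, and 0 to 3 when a library was left out. The number called lower, 1 as deposited, was 2 with median-ratio scaling, 3 with quantile normalization, 2 with the length trend removed and 1 in each fit that left out a library. For the mitochondrial genes, 1 was called lower as deposited, 0 without a filter, 0 after rescaling to TPM, 0 with the length trend removed, 2 with median-ratio scaling, 3 with quantile normalization and 0 to 1 when a library was left out. The median log2 fold change of the cytosolic genes was 0.038 after rescaling to TPM, -0.039 with median-ratio scaling and -0.024 to 0.043 when a library was left out; that of the mitochondrial genes was -0.078 with quantile normalization and -0.055 to -0.003 when a library was left out. The median of all tested genes itself moved between -0.024 and 0.069 with the scaling. The causes of these shifts were not tested. With the replicate number as a block 0 mitochondrial genes were called lower, and Tars (adjusted p = 0.0671) and Fars2 (adjusted p = 0.0573) lost their calls. Deviations of same-numbered libraries correlated at 0.054, -0.063 and 0.052, and those of differently numbered libraries at -0.149 to 0.107. With 3 libraries per group these values cannot decide whether same-numbered libraries share a culture or batch, which the sources do not state. Depth limits mainly the mitochondrial genes, where Mars2 had 12 to 48 reads.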
